A study of Mus musculus with 8 samples.

Results

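The let-7 family is a set of mature miRNAs that share their bases 2 to 8, counted from the 5′ end. Here it comprised the 5p arms of let-7a, let-7b, let-7c, let-7d, let-7e, let-7f, let-7g and let-7i together with miR-98-5p, which were chosen by name and number 9 of the 3514 features listed in the tables of the mouse experiment, 1063 of which are mature miRNAs. The cells were bone marrow-derived macrophages (BMDMs) of male C57BL/6J mice 10 weeks old, grown with macrophage-colony stimulating factor (M-CSF) as control or kept for 36 h in medium from which M-CSF was withdrawn, a stimulus of apoptosis. Total RNA was sequenced on Ion Proton with a TriLink kit (2 libraries a condition) and on SOLiD with a NEBNext kit (1 library a condition). The labels also name small RNA as the extract of the Ion Proton samples, which the methods call total RNA. The SOLiD run also held a library of gel-purified RNA of 25 to 40 nt for each condition. The 2 runs differ in kit, sequencer and mapping at once, so these cannot be told apart. The methods call the 2 Ion Proton libraries of a condition biological replicates.

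Mature miRNAs guide Argonaute proteins to messenger RNAs, which are recognised mainly through the bases near the 5′ end of the miRNA called the seed. The members of the let-7 family share a seed and so can pair with the same target sites, among them sites in messages for Ras, Hmga2 and Lin28 proteins. Lin28 in turn binds let-7 precursors and blocks their processing. The family is abundant in differentiated cells, macrophages included, and low in embryonic stem cells. The mature sequences are shown because the members differ by few bases, which bears on how their reads can be told apart. The bases in capitals are the seed, bases 2 to 8 counted from 1 at the 5′ end. The prefix mmu, for mouse, is left out in the text.
mmu-let-7a-5p: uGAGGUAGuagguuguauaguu
mmu-let-7b-5p: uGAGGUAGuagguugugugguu
mmu-let-7c-5p: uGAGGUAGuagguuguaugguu
mmu-let-7d-5p: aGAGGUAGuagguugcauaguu
mmu-let-7e-5p: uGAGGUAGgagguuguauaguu
mmu-let-7f-5p: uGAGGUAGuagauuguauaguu
mmu-let-7g-5p: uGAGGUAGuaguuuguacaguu
mmu-let-7i-5p: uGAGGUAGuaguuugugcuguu
mmu-miR-98-5p: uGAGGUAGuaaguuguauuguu

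All 9 sequences, taken from the deposited table and equal to the RefSeq entries, are 22 nt long, so their read counts can be compared with each other without a correction for length. They carry the same base at 14 of 22 positions, the seed and the last 3 bases among them. Of the 36 pairs of members, 4 differ at 1 base. These are let-7a and let-7c (A19G), let-7a and let-7e (U9G), let-7a and let-7f (G12A), and let-7b and let-7c (G17A), where each token gives the base of the first member, its position and the base of the second. Ion Proton reads were mapped locally and could be reported at up to 10 places. Reads of such near neighbours may therefore have been shared or counted on more than 1 member. The split between members and their sum are uncertain for this reason.

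The members come from 12 hairpin genes on 7 chromosomes of GRCm38 (GENCODE annotation). On chromosome 13, Mirlet7a-1 (chr13:48538179-48538272, minus strand), Mirlet7f-1 and Mirlet7d lie in exons of the long non-coding RNA gene 6720427I07Rik, with 261 and 1714 bases between neighbours. On chromosome X, Mirlet7f-2 (chrX:151912346-151912428) and Mir98 lie 785 bases apart in an intron of Huwe1. On chromosome 15, Mirlet7c-2 and Mirlet7b (chr15:85707319-85707403) lie 621 bases apart in an exon of Lncppara. The others are Mirlet7c-1 in an intron of Mir99ahg on chromosome 16, Mirlet7e in an intron of Spaca6 on chromosome 17, Mirlet7a-2 and Mirlet7g on chromosome 9, in introns of 3110039I08Rik and Wdr82, and Mirlet7i in an exon of D630033A02Rik on chromosome 10. Since let-7a, let-7c and let-7f are each made from more than 1 hairpin, their reads cannot be assigned to a locus.

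Reads on listed features numbered 6053130 to 7760142 in the Ion Proton libraries and 4039837 to 12178454 in the SOLiD libraries. Values are given as counts per 1000000 such reads (CPM) for Ion Proton and as the deposited reads per 1000000 (RPM) for SOLiD. Mature miRNAs took 39.99% and 41.24% of the reads of the Ion Proton control libraries and 29.5% and 29.9% after M-CSF withdrawal, while nuclear tRNA features took 26.6% to 26.7% and 44.7% to 47.1%. In SOLiD total RNA the miRNA share was 82.0% for control cells and 41.1% after withdrawal. A miRNA can therefore be lower per 1000000 reads and higher among miRNAs, and both scales are given below. Less of a miRNA per cell and fewer cells that make it cannot be told apart in such bulk RNA. Of 6 myeloid miRNAs, 6 were above 10 CPM in every Ion Proton library, and 4 of 4 analysed were above 10 RPM in every SOLiD library. A list of 15 miRNAs of other cell types summed to 24.9 to 30.2 CPM in the Ion Proton libraries but to 5011 to 7924 RPM in the SOLiD libraries, where 12 of the 15 were above 10 RPM (13 were analysed there and 8 in the Ion Proton run). Erythroid miR-451a had 3227 RPM in the SOLiD total RNA control library and 2659 RPM after M-CSF withdrawal, and 5.54 and 1.25 CPM in the Ion Proton controls. The other erythroid miRNA of the list, miR-144-3p, had only 1.91 and 2.22 RPM in these SOLiD libraries, and 1.03 and 1.81 CPM in the Ion Proton controls. High SOLiD values were not confined to erythroid miRNAs. In the SOLiD total RNA control epithelial miR-200b-3p had 1844 RPM and lymphocyte miR-150-5p had 516 RPM. The Ion Proton controls had 1.68 and 1.53 CPM of miR-200b-3p and 0 and 1.81 CPM of miR-150-5p. The part of such RNA in the SOLiD values of the let-7 family was not tested.

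The family was far more prominent in the Ion Proton libraries than in the SOLiD libraries of total RNA. Its 9 members summed to 138616 and 138154 CPM in the Ion Proton controls, and to 26391 RPM in the SOLiD total RNA control. As a share of mature miRNA reads this was 34.7% and 33.5% against 3.22% (95% Wilson interval 3.20% to 3.23%, which covers counting error only). In the Ion Proton controls let-7a ranked 2 of 737 mature miRNAs, and all 9 members were within the first 23. In the SOLiD total RNA control let-7f ranked 4 of 893 mature miRNAs, let-7a ranked 29, and miR-98 ranked 163. The contrast is with total RNA only. In the size selected control of the same SOLiD run the 9 members summed to 142100 RPM, or 16.3% of mature miRNA reads.

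The members also stood in another order. In the Ion Proton controls let-7a was highest at 38968 and 38543 CPM, followed by let-7c at 27143 and 26688, let-7f at 25935 and 25685, and let-7i at 19199.6 and 19809.6 CPM. Then came let-7b at 10394 and 10343 CPM, let-7e at 4815 and 4666, let-7d at 4561 and 4372, let-7g at 3929 and 4246, and miR-98 at 3672 and 3802 CPM. No 2 neighbours in this order overlapped over the 2 control libraries. After M-CSF withdrawal let-7f was above let-7c and let-7g above let-7e and let-7d, and the ranges of let-7e and let-7d overlapped. The highest member exceeded the lowest 9.98- to 10.7-fold in the 4 Ion Proton libraries.

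**Figure D1:**
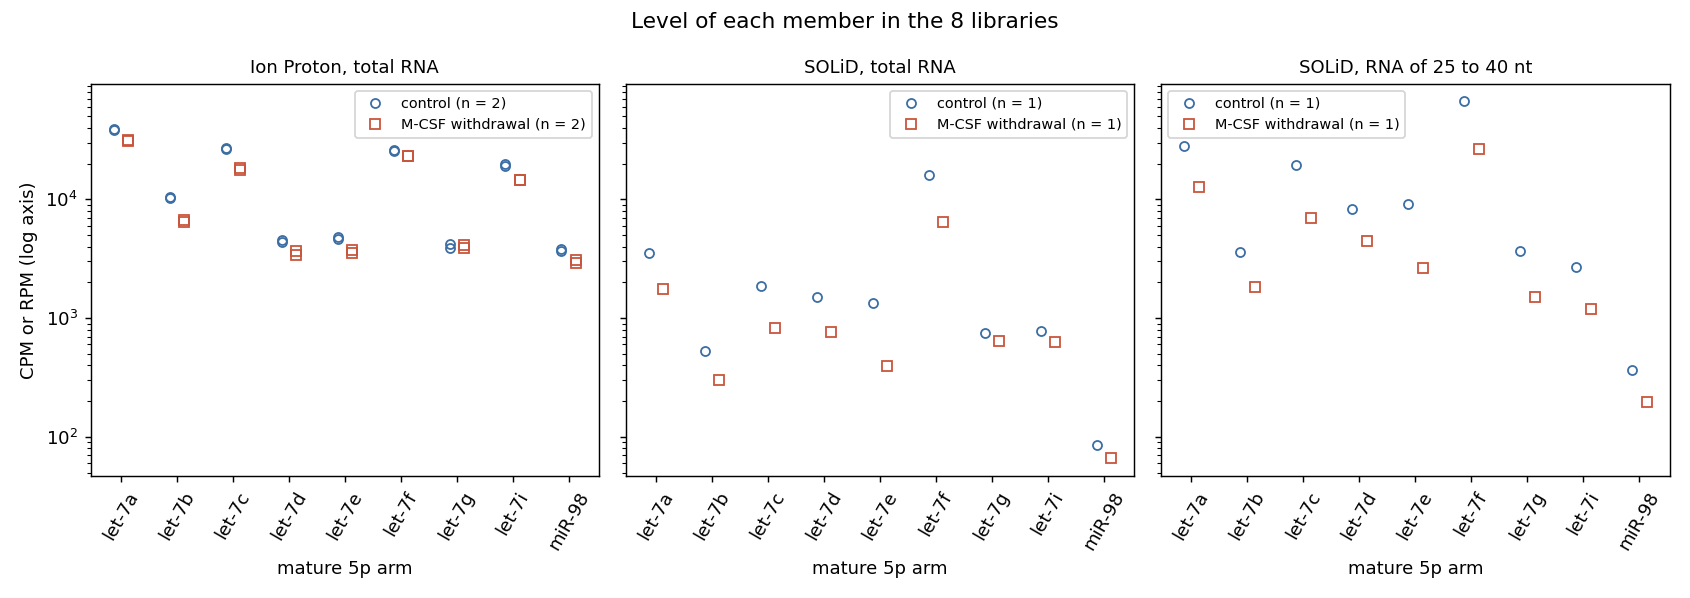
Level of each of the 9 members (x axis) in CPM (Ion Proton) or RPM (SOLiD) on a log axis, with 1 point for each library, circles for control and squares for M-CSF withdrawal. let-7a is highest in the 4 Ion Proton libraries and let-7f in the 4 SOLiD libraries, and miR-98 is lowest in all 8.

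In the SOLiD libraries let-7f took the largest share of the family's reads. It had 15968 RPM in the total RNA control, 6395 RPM in total RNA after M-CSF withdrawal, 66726 RPM in the size selected control and 26704 RPM in size selected RNA after withdrawal. This was 60.5%, 54.2%, 47.0% and 45.9% of the reads on the 9 members, against 18.6% to 21.7% in the Ion Proton libraries. let-7i went the other way, with 13.4% to 14.3% of family reads in the Ion Proton libraries and 1.91% to 5.30% in the SOLiD libraries. miR-98 took 2.65% to 2.90% and 0.256% to 0.562%. The highest member of a SOLiD library exceeded the lowest 96.4- to 187-fold. With 1 SOLiD library a group these shares have no replicate check.

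**Figure D2:**
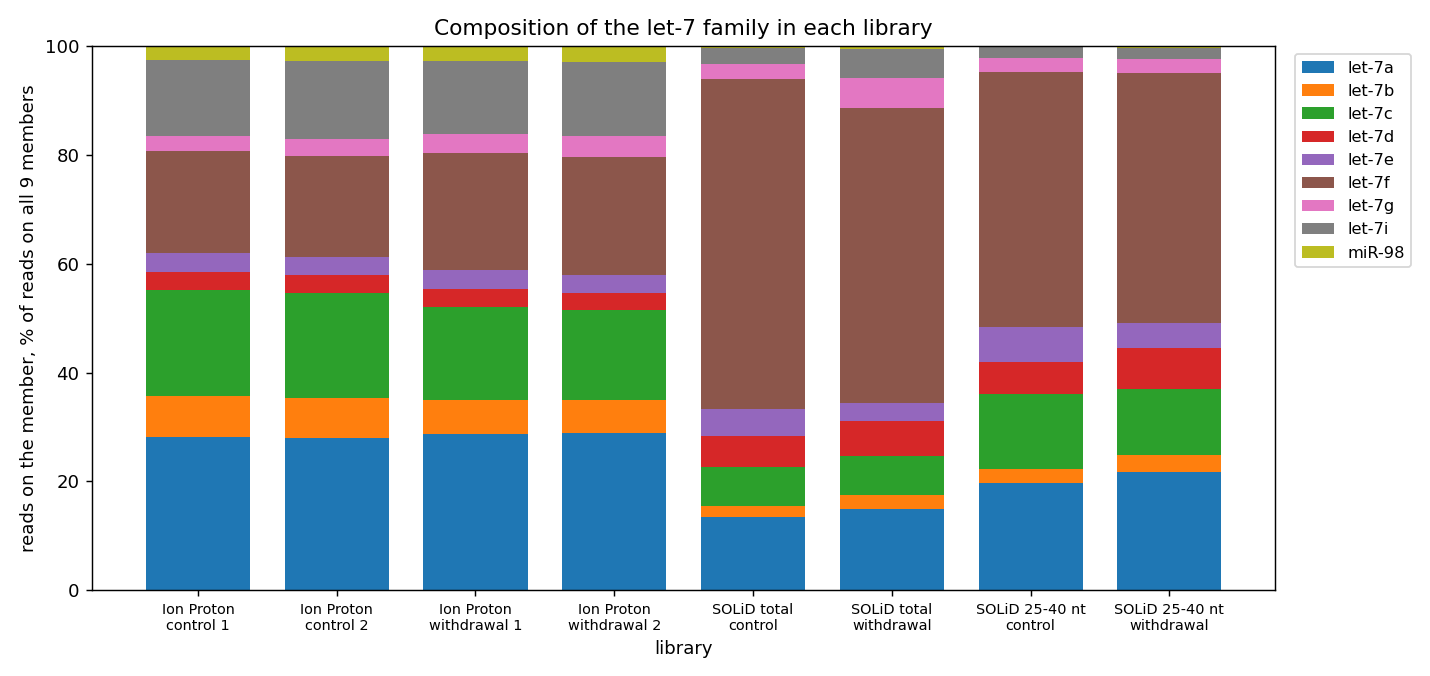
Share of each member in the reads on all 9 members (y axis, %), stacked, for each of the 8 libraries (x axis). let-7a takes 27.9% to 28.9% of family reads in the Ion Proton libraries, and let-7f takes 45.9% to 60.5% in the SOLiD libraries.

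A further member of the miRNA catalogue, let-7j, was singled out after its values were seen. It is 24 nt long and differs from let-7i by G8U and by 2 more bases at its 3′ end, so that its seed is not that of the family.
let-7i-5p: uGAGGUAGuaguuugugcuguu
let-7j: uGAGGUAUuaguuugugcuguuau
In the Ion Proton libraries let-7j had 15042 and 15480.1 CPM in control cells and 11267 and 11138 CPM after M-CSF withdrawal, which was 77.0% to 78.3% of the value of let-7i. In the SOLiD libraries it had 14.7, 17.4, 63.1 and 26.5 RPM, or 1.88% to 2.78% of let-7i. Ion Proton reads could be reported at several places, and the part of shared reads in the counts of let-7j was not tested. Mature miRNAs with the same seed outside the 9 members were let-7k and miR-1961. In the Ion Proton libraries let-7k had 8.59 to 12.1 CPM and miR-1961 had 0.330 to 1.53 CPM.

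The first comparison asked how M-CSF withdrawal changed the family in the Ion Proton run. The sum of the 9 members was 138385 ± 326 CPM in control cells and 107578 ± 1784 CPM after withdrawal (mean ± SD, n = 2 each). Scaled on all features, let-7a, let-7b, let-7c, let-7d, let-7e and let-7i fell, by 0.27 to 0.60 on the log2 scale, whereas scaled on mature miRNAs none of these 6 passed the test and let-7a, let-7d, let-7e and let-7i had values above 0. let-7f, let-7g and miR-98 did not pass the test on all features. In the edgeR quasi-likelihood test over 2029 features, 6 of the 9 members were lower at an adjusted p under 0.05 and 0 were higher. By comparison, 8.97% of all features tested and 13.3% of the 600 mature miRNAs were called lower, and 15.7% of all features were called higher. The median log2 change of the members was -0.29, against -0.39 for the mature miRNAs tested and 0.08 for all features.

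let-7b had 10394 and 10343 CPM in control cells and 6724 and 6432 CPM after withdrawal. Both withdrawal libraries were below both controls, and the log2 change was -0.60 (SE 0.0560, edgeR adjusted p = 0.00375). let-7c, which differs from let-7b by 1 base and shares a locus with it, had 27143 and 26688 CPM and then 18542 and 17526 CPM. Its groups did not overlap either, with a log2 change of -0.53 (SE 0.0535, edgeR adjusted p = 0.00471). let-7i had 19199.6 and 19809.6 CPM in control cells and 14629 and 14438 CPM after withdrawal, a log2 change of -0.37 (SE 0.0550, edgeR adjusted p = 0.0143).

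Smaller falls were found for let-7a, let-7d and let-7e. let-7a went from 38968 and 38543 CPM to 31345 and 30744 CPM, a log2 change of -0.27 (SE 0.0487, edgeR adjusted p = 0.0214). let-7d had 4561 and 4372 CPM and then 3654 and 3394 CPM, and its log2 change was -0.29 (SE 0.0656, edgeR adjusted p = 0.0407). let-7e had 4815 and 4666 CPM and then 3756 and 3509 CPM, with a log2 change of -0.33 (SE 0.0632, edgeR adjusted p = 0.0245). In all 3 the withdrawal libraries lay below the controls. These 3 calls did not hold when the second control library or either withdrawal library was left out. Each such fit had 1 library in a group. The median log2 change of the members lay between -0.40 and -0.30 over the fits with any library left out.

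The remaining members did not pass the threshold. let-7f had 25935 and 25685 CPM in control cells and 23360.1 and 23076 CPM after withdrawal (log2 change -0.10, edgeR adjusted p = 0.254). miR-98 had 3672 and 3802 CPM and then 2934 and 3081 CPM (log2 change -0.26, edgeR adjusted p = 0.0647). The groups of both were apart all the same. let-7g was the single member whose groups overlapped, with 3929 and 4246 CPM against 3896 and 4115 CPM (log2 change 0.02, SE 0.0800, edgeR adjusted p = 0.867). In CPM, 8 of 9 members thus had both withdrawal libraries below both controls, which held for 28% of all features tested and 40.2% of mature miRNAs.

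The direction depended on the scale. As a share of mature miRNA reads the family made up 34.7% and 33.5% in control cells and 36.9% and 35.6% after withdrawal. Per 1000000 mature miRNA reads, 7 members were higher after withdrawal, 5 of them with groups that did not overlap, and let-7b and let-7c were lower without overlap. On this scale 48.3% of all features and 20.7% of mature miRNAs had both withdrawal libraries above both controls, and 13% and 19.3% had both below. When the edgeR scaling factors were computed over mature miRNAs, the median of all features moved from 0.08 to 0.46 on the log2 scale and the calls from 318 higher and 182 lower to 420 higher and 20 lower. In that fit 2 members were called higher and 0 lower, where 20.7% of all features and 3.33% of mature miRNAs were called higher. These were let-7g (log2 change 0.41, edgeR adjusted p = 0.0148) and let-7f (0.28, edgeR adjusted p = 0.0278). The log2 changes of let-7b and let-7c were -0.22 and -0.14 and did not pass, and the 5 others lay between 0.01 and 0.12.

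**Figure D3:**
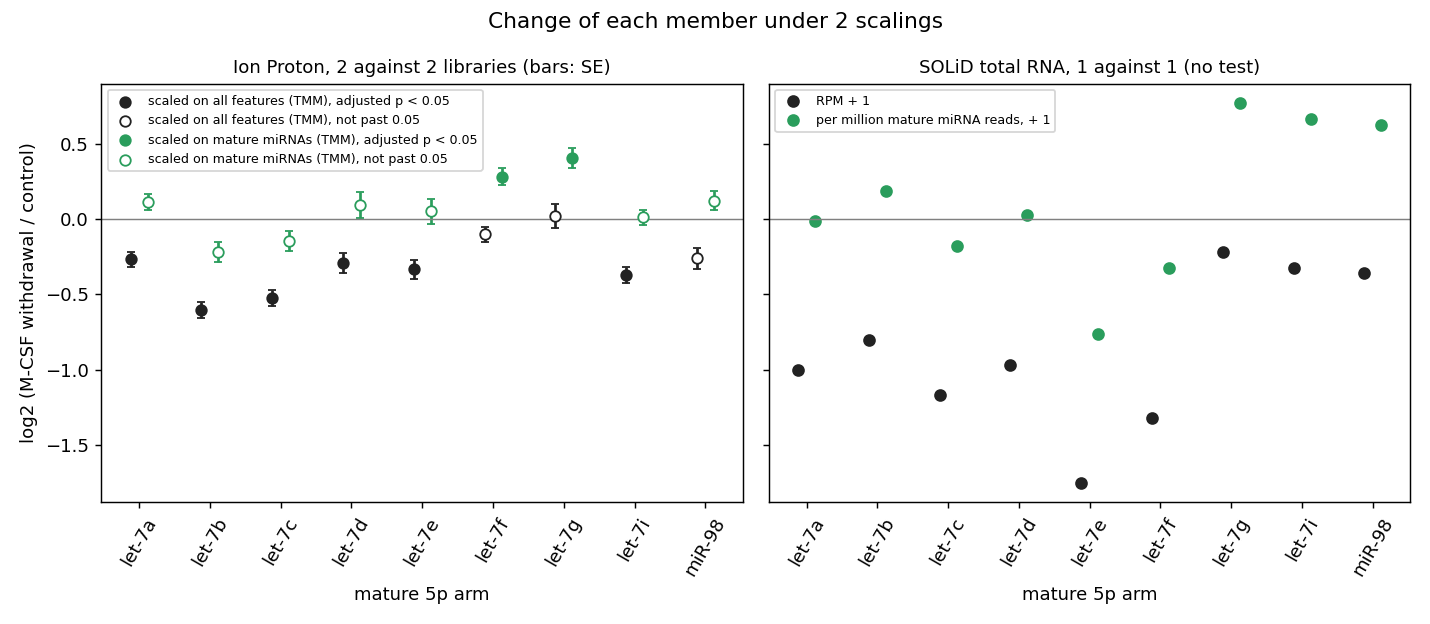
log2 ratio of M-CSF withdrawal to control (y axis) for each member (x axis) under a scaling on all features and a scaling on mature miRNAs, on the left for Ion Proton (edgeR, bars are SE, filled points have an adjusted p under 0.05) and on the right for the single SOLiD libraries of total RNA. On the left 6 members are called lower in black and let-7f and let-7g are called higher in green. On the right all 9 black points are below 0 and 5 green points are above it.

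Shares of family reads do not depend on other RNA classes. let-7f had 18.7% ± 0.0837 of family reads in control cells and 21.6% ± 0.171 after withdrawal (mean ± SD, n = 2 each) and let-7g had 2.95% ± 0.169 and then 3.73% ± 0.206. let-7c had 19.4% ± 0.187 and then 16.8% ± 0.390, and let-7b had 7.49% ± 0.00851 and then 6.11% ± 0.0903. let-7a and let-7i were also apart between groups, while the shares of let-7d, let-7e and miR-98 overlapped. Thus 6 of 9 members were apart, for which no background of shares was computed. On the scale of mature miRNA reads, 19.3% of mature miRNAs had both withdrawal libraries below both controls and 20.7% had both above. With 2 libraries a group, such a separation alone is weak evidence of a change. The 9 shares of a library add up to the whole, so a higher share of any member lowers the others. No test was run on the shares.

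In the SOLiD libraries of total RNA all 9 members were lower after withdrawal per 1000000 reads, while 5 were higher per 1000000 mature miRNA reads. In RPM they had log2 ratios, of RPM plus 1, from -1.75 to -0.22 and a median of -0.97. The median over 258 mature miRNAs with at least 10 RPM in both libraries was -0.71 and that over all 978 such features was 0.43, and 92.2% of these mature miRNAs were lower. A ratio below -1 was found for 4 members, let-7a, let-7c, let-7e and let-7f, and for 11.6% of all features and 34.1% of mature miRNAs. let-7e, an intronic miRNA of Spaca6, had the lowest ratio, with 1334 RPM in the control and 395 RPM after withdrawal (log2 ratio -1.75, counting interval -1.81 to -1.70). let-7f had 15968 and 6395 RPM, let-7c had 1872 and 831 RPM, and let-7a had 3562 and 1772 RPM. let-7g had the ratio nearest 0, with 753 and 647 RPM (log2 ratio -0.22, counting interval -0.27 to -0.16). The median log2 ratio per 1000000 mature miRNA reads was 0.03. The RNA integrity number was 8.4 for the control and 7.5 for the withdrawal sample, and its part was not tested.

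When the 3 control and 3 withdrawal libraries of total RNA were fitted together by limma with a term for the run, 2 of 9 members were called lower and 0 higher, against 5.7% of 1701 features and 9.71% of 443 mature miRNAs called lower and 11.6% of features called higher. These were let-7b (log2 change -0.71, SE 0.116, limma adjusted p = 0.0146) and let-7c (-0.78, SE 0.153, limma adjusted p = 0.0252). The log2 changes of the other 7 lay between -0.84 (let-7e, limma adjusted p = 0.0974) and -0.09 (let-7g, limma adjusted p = 0.617). This count rests on which libraries enter. With 1 SOLiD library left out, the run term absorbs the other, so the change comes from the Ion Proton libraries alone. The log2 changes were the same whichever was left out, -0.66 for let-7b and -0.58 for let-7c. Such fits called 7 members lower, with 244 (without the control) or 242 (without the withdrawal library) of 1701 features. Without any 1 of the 4 Ion Proton libraries 0 members were called lower, but then only 0 to 4 of 1701 features were. Scaled per 1000000 mature miRNA reads, 0 of 9 were called in either direction, where 300 of 1701 features were called higher and 2 lower. On that scale 6 of the 9 log2 changes were above 0.

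The last comparison of total RNA set the change in the SOLiD run against that in the Ion Proton run. In a limma fit with a run by treatment term, the log2 change in the SOLiD run was below that in the Ion Proton run for 5 of 9 members at an adjusted p under 0.05, against 5% of all features and 11.5% of mature miRNAs (26% of all features in either direction). The SOLiD run had 1 library a condition, so its spread was not measured. The fit assumes that it equals that of the Ion Proton replicates, and the p-values hold for these libraries under that assumption. The log2 change (of values plus 1) of let-7e was -0.38 in Ion Proton and -1.75 in SOLiD (difference -1.37, SE 0.119, limma adjusted p = 0.00265). For let-7f it was -0.15 and -1.32 (difference -1.17, SE 0.103, limma adjusted p = 0.00268). let-7a, let-7d and let-7c had differences of -0.69, -0.63 and -0.59. For let-7b, let-7g, let-7i and miR-98 the difference lay between -0.19 and 0.10 and did not pass. Scaled per 1000000 mature miRNA reads, let-7e (-0.83, limma adjusted p = 0.00962) and let-7f (-0.62, limma adjusted p = 0.0101) had lower changes in the SOLiD run, let-7a, let-7c and let-7d did not pass, and let-7i (0.64, limma adjusted p = 0.00895) and miR-98 (0.49, limma adjusted p = 0.0319) had higher ones. On that scale 35.3% of all features and 12.4% of mature miRNAs passed the threshold in either direction.

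RNA of 25 to 40 nt was sequenced in the study to measure cleaved Y RNAs, and its nominal window starts above the 22 nt of the members. All 9 members nevertheless had higher RPM in the size selected than in the total RNA library of control cells, by 3.46-fold (let-7i) to 10.5-fold (let-7c). let-7c had 1872 RPM in total RNA and 19586 RPM in size selected RNA, the highest ratio of 282 mature miRNAs with at least 10 RPM in both. let-7a, with 3562 and 27966 RPM, had the next highest. The median log2 ratio of the members was 2.47, against -0.07 for the mature miRNAs. A log2 ratio above 1 was found for 9 of 9 members, and for 16.8% of all features and 21.3% of mature miRNAs. There is 1 library of each kind, so no test was run. The labels give RNA integrity numbers of 2.7 and 2.6 for the size selected samples, whose part was not tested.

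After M-CSF withdrawal the ratio of size selected to total RNA was again above 0 on the log2 scale for all 9 members, from 0.92 (let-7i) to 3.07 (let-7c), with a median of 2.52 against 0.41 for 245 mature miRNAs. A log2 ratio above 1 was found for 8 of 9, against 17.1% of all features and 18.8% of mature miRNAs. let-7f had nearly the same ratio in both conditions, 2.06 and 2.06. let-7g had 2.27 in control cells and 1.23 after withdrawal, and let-7i had 1.79 and 0.92. The family's share of mature miRNA reads was 16.3% in the size selected control and 12.9% in the size selected withdrawal library, against 3.22% and 2.87% in total RNA. Scaling per 1000000 mature miRNA reads left every one of these ratios above 0.

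In size selected RNA the members were again lower after withdrawal per 1000000 reads, with log2 ratios from -1.80 (let-7e) to -0.88 (miR-98) and a median of -1.20, but per 1000000 mature miRNA reads the ratios of let-7d and miR-98 were above 0. The median over 262 mature miRNAs was -0.81. A ratio below -1 was found for 6 of 9 members and for 11.2% of all features and 34.7% of mature miRNAs. let-7e had 9144 RPM in the control and 2624 RPM after withdrawal, let-7c had 19586 and 7004 RPM, and let-7g had 3647 and 1517 RPM. let-7g, which had the smallest difference in total RNA, was thus not the smallest here. miR-98 had 363 and 198 RPM.

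The 3p arms, cut from the other side of the same hairpins, did not share this pattern as a group. In control cells let-7i-3p had 1059.5 RPM in total RNA and 170 RPM in size selected RNA (log2 ratio -2.63, counting interval -2.71 to -2.55). let-7g-3p had 231 and 48.7 RPM (log2 ratio -2.22). let-7d-3p had 544 and 572 RPM, a log2 ratio of 0.07, and after withdrawal 261 and 619 RPM, a log2 ratio of 1.24. In SOLiD total RNA of control cells let-7i-3p exceeded let-7i-5p, which had 783 RPM, while in size selected RNA the 5p arm was higher at 2715 RPM. The sequences of the 3p arms are given because let-7a-1-3p and let-7c-2-3p are the same molecule and let-7i-3p and let-7g-3p had the lowest ratios in control cells among 3p arms of at least 10 RPM.
let-7a-1-3p: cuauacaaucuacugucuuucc
let-7c-2-3p: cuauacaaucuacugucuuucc
let-7g-3p: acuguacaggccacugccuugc
let-7i-3p: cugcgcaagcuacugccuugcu

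**Figure D4:**
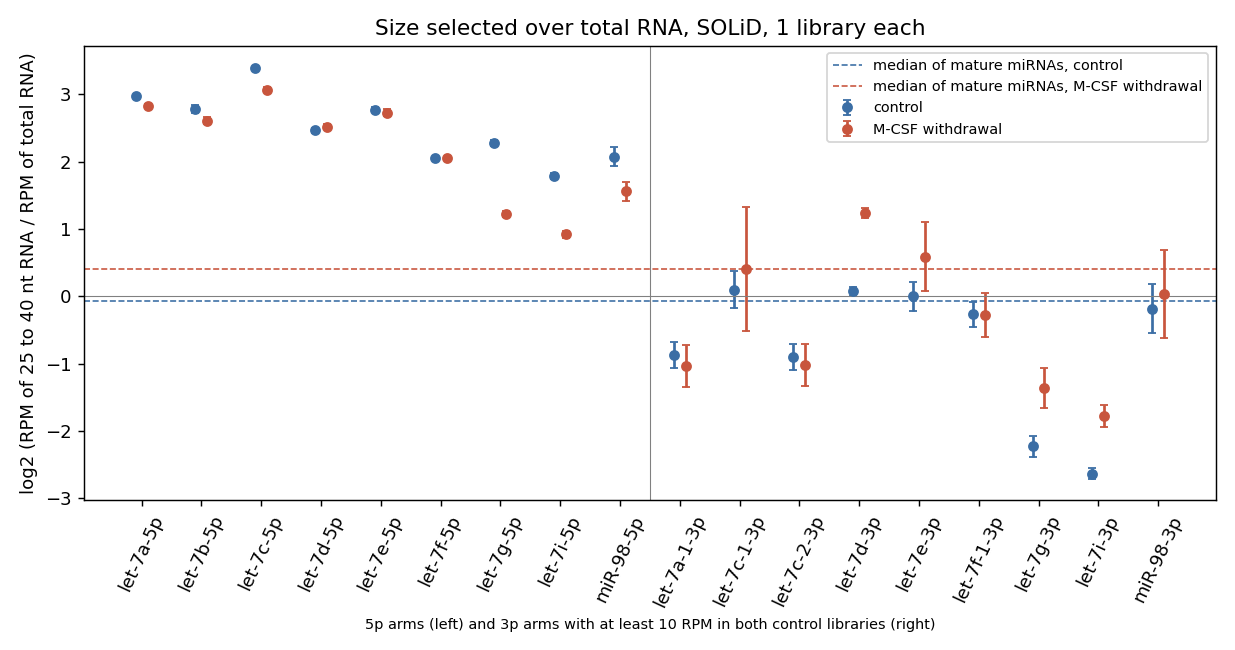
log2 ratio of RPM in size selected RNA to RPM in total RNA of the SOLiD run (y axis) for the 5p arms on the left and for 3p arms with at least 10 RPM in both control libraries on the right (x axis), with 95% counting intervals and dashed lines at the median of mature miRNAs. The 9 5p arms lie between 0.92 and 3.39 in both conditions, and let-7g-3p and let-7i-3p lie below -1 in both. let-7a-1-3p (-1.03) and let-7c-2-3p (-1.02) lie below -1 after withdrawal only.

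In the Ion Proton libraries the 3p arms were scarce. let-7d-3p had 176 and 163 CPM in control cells and 112 and 101 CPM after withdrawal, and was the 1 of 11 3p arms tested that was called (log2 change -0.61, SE 0.0927, edgeR adjusted p = 0.0148), against 8.97% of all features called lower. The 10 others had at most 7.10 CPM in any library. let-7i-3p, at 1059.5 RPM in the SOLiD control, had 0 reads in both Ion Proton controls, which allows up to 0.387 and 0.418 CPM, and 0.767 and 0.991 CPM after withdrawal. let-7a-1-3p and let-7c-2-3p, whose sequences are identical, had equal counts in all 4 Ion Proton libraries, 1 of 2 such cases among 10 groups of identical mature sequences. Their SOLiD counts were close too, with 474 and 472 reads in the total RNA control and 397 and 388 reads in the size selected control. The part of shared reads in the SOLiD counts was not tested either. In the SOLiD total RNA libraries let-7e-3p had 48.9 RPM and then 7.23 RPM (log2 ratio -2.60), and let-7c-1-3p had 29.6 RPM and then 2.38 RPM (log2 ratio -3.18), both lower than their 5p arms in this ratio.

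Several let-7 hairpins lie beside hairpins of the miR-99/100 and miR-125 families. Mirlet7c-1 and Mir99a are 656 bases apart on chromosome 16, Mirlet7e and Mir125a are 367 bases apart on chromosome 17, and Mirlet7a-2 and Mir100 are 5211 bases apart on chromosome 9. All 5 neighbours looked at were called lower in the Ion Proton run, with log2 changes from -1.05 to -0.60, where 8.97% of features were. miR-99a-5p had 202 and 228 CPM in control cells and 108 and 120 CPM after withdrawal (log2 change -0.86, SE 0.115, edgeR adjusted p = 0.0110). miR-125b-5p had 26.8 and 35.6 CPM and then 13.2 and 15.9 CPM (log2 change -1.05, SE 0.214, edgeR adjusted p = 0.0289). With scaling factors from mature miRNAs, 3 of 5 were called lower there, where 0.986% of all features and 2% of mature miRNAs were. These were miR-99a-5p (-0.47), miR-100-5p (-0.48) and miR-125a-5p (-0.47). The limma fit of both runs, scaled on mature miRNA reads, called 0 of the 5 lower, with 2 of 1701 features. Its log2 changes ran from -0.65 (miR-125b-5p) to 0.01 (miR-99b-5p). In SOLiD total RNA on that scale, the log2 ratios of miR-99b-5p (0.43) and miR-100-5p (0.24) were positive. Those of miR-99a-5p (-0.47), miR-125a-5p (-0.40) and miR-125b-5p (-0.70) were negative. Unlike the family, all 5 neighbours had higher values in the SOLiD total RNA control than in the Ion Proton controls. In that SOLiD library they ran from 204 RPM (miR-100-5p) to 13259 RPM (miR-99a-5p), with 4098 RPM for miR-125b-5p.

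The 3 mature miRNAs whose levels followed the summed family most closely over the 8 libraries were miR-10a-5p, miR-24-2-5p and miR-532-5p. Likeness was the root mean square difference of log2 values, each centred on the mean of control and withdrawal within its run and RNA fraction, over 126 mature miRNAs with a mean of at least 100 CPM or RPM. It was 0.0428 for miR-10a-5p, 0.0807 for miR-24-2-5p and 0.0943 for miR-532-5p, with a median of 0.276 over the candidates. miR-10a-5p had 1607 and 1626 CPM in the Ion Proton controls and 1181 and 1148 CPM after withdrawal, and 1429 and 617 RPM in SOLiD total RNA. The centring removes the level of each run, so the measure compares only the change with withdrawal.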

How the data were processed

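Per the methods, the authors trimmed Ion Proton reads with cutadapt 1.2.1, discarded reads under 15 bases, mapped them to mm10 with Bowtie2 2.2.4 (up to 10 places per read) and counted them on miRBase 21, tRNA and Ensembl 75 features. The deposited values are raw read counts. For the SOLiD run the authors mapped with LifeScope and deposited reads per 1000000 listed reads (RPM), with decimal commas. All SOLiD values were whole reads within 0.01 read after division by the value of 1 read.

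The 4 Ion Proton libraries were tested with edgeR 4.0.16 (TMM, quasi-likelihood) on features whose counts summed to 5 or more. limma 3.58.1 (log2 of value + 1, intensity trend, run term) served for the 6 total RNA libraries, with a run by treatment term for the difference. Calls used a Benjamini-Hochberg adjusted p under 0.05, over every feature tested. All 9 members passed every filter. A fold on the log2(value + 1) scale understates the change of low features. Single SOLiD libraries have ratios with 95% counting intervals and no test. Alternatives were DESeq2 1.42.0, other scalings, filters and pseudocounts, a replicate block, and fits without 1 library.

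The rule for named miRNAs took the 9 members, the 3p arms, 5 cluster neighbours, other miRNAs with the same seed and the 3 most alike in level. The members and lists were chosen with earlier results of these data known. Sequences come from the deposited table, and hairpin positions from GENCODE on GRCm38, the assembly also called mm10. No reads were analysed here.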

Additional observations from a re-analysis of the deposited data

Results flagged for a closer look

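For 5 of the 9 members the run by treatment term passed the threshold (limma, adjusted p under 0.05 over 1701 features). The log2 change in the SOLiD run minus that in the Ion Proton run was -0.69 for let-7a (limma adjusted p = 0.0113), -0.59 for let-7c (limma adjusted p = 0.0212), -0.63 for let-7d (limma adjusted p = 0.0230), -1.37 for let-7e (limma adjusted p = 0.00265) and -1.17 for let-7f (limma adjusted p = 0.00268). Per 1000000 reads, all 5 were lower after withdrawal in each run. Of all features 26% passed in either direction. The SOLiD side rests on 1 library a condition, whose spread was not measured and is assumed to equal that of the Ion Proton replicates, so these values do not show that the runs differ beyond the spread of SOLiD libraries. With mature miRNA scaling the term passed for let-7e and let-7f among these 5. No group had the 4 libraries that a search for single outlying samples needs.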

How the results depend on the processing

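In the Ion Proton run, edgeR with TMM over mature miRNAs called 0 members lower and 2 higher, and a fit of mature miRNAs alone called 1 lower and 2 higher, among 48 miRNAs called. Both gave log2 changes of 0.12 for let-7a, 0.094 for let-7d, 0.052 for let-7e, 0.28 for let-7f, 0.012 for let-7i and 0.12 for miR-98. Fitting both runs per 1000000 mature miRNA reads called 0 members and 2 of 1701 features lower. The log2 changes above 0 were 0.084 for let-7a, 0.081 for let-7d, 0.091 for let-7f, 0.54 for let-7g, 0.24 for let-7i and 0.30 for miR-98. The difference between runs became 0.39 for let-7b, 0.35 for let-7g and 0.49 for miR-98. In SOLiD total RNA the members' median became 0.026, with 0.19 for let-7b, 0.026 for let-7d, 0.78 for let-7g, 0.67 for let-7i and 0.63 for miR-98, and in size selected RNA -0.24, with 0.045 for let-7d and 0.076 for miR-98. The median ratio of size selected to total RNA became 2.38 in control cells and 2.40 after withdrawal. Centring on the median of features gave -1.40 in SOLiD total and -2.10 in size selected RNA. In the fit of both runs it called 5 members lower, with 230 of 1701 features and 117 of 443 mature miRNAs.

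let-7g, near 0 in the Ion Proton run, was -0.10 with DESeq2, -0.029 with library totals, -0.19 with upper quartile factors, -0.019 with a minimum count of 20, and -0.14 to 0.089 when 1 library was left out. With 1 library left out, the Ion Proton fit called 288 to 513 features in either direction and 3 to 7 members lower, and the fit of both runs 15 to 564 features and 0 to 7 members. TMM factors, and edgeR on counts and recovered reads, each called 1 member lower in both runs, with 118 and 104 of 1701 features. With a run by treatment term that edgeR fit called 8 members and 408 of 1701 features. let-7i was the member not called (-0.75, edgeR adjusted p = 0.0510). A replicate block left 2 members called lower in the Ion Proton run, with 126 of 2029 features and 47 of 600 mature miRNAs. In both runs it left 0 members and 29 features called. The labels do not say what a shared replicate letter marks. Deviations of the same letter had a correlation of 0.00562 over 852 features, although for 8 of the 9 members the difference between replicates in CPM had the same sign in both groups, a count made after the values were seen. The cause of these changes was not tested. The lowest value of a member was 66.3 RPM, whereas 10 of 11 3p arms had at most 7.10 CPM in the Ion Proton run, where depth limits what can be seen.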
